A study of Homo sapiens with 4 samples.

Results

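Kinesins are motor proteins that walk along microtubules or change their ends. The kinesin genes described here were the protein-coding rows of the RNA-seq table whose symbol is KIF, a number and at most 1 letter, or KIFC and a digit. They numbered 42 of the 58735 genes in the table. They were divided by known role into 14 mitotic kinesins, 15 transport kinesins and 13 others. The symbol rule leaves out CENPE, a kinesin of the kinetochore, as well as the light chains and adaptors that kinesins bind, and these are given apart from the members.

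The study compared 2 human colorectal cancer cell lines in 2 growth forms, with 1 RNA-seq library for each of the 4 conditions. HCT116 and LOVO cells, labelled as wild type, were grown attached in RPMI-1640 with serum and no treatment, or as spheroids, which the labels mark with a treatment of 1 mg/ml without naming the agent. The study's methods describe spheroid culture in ultralow attachment dishes with serum-free medium and growth factors, and name oxaliplatin as the drug, at a dose in μg/ml. Growth form, medium and drug therefore changed together and cannot be told apart. Each condition was 1 library, so no value below has a replicate error, and each comparison describes the libraries and not the conditions at large. No test was run. A model of growth form over both lines, which would leave 1 residual degree of freedom, was not fitted.

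Values are FPKM, fragment counts divided by gene length in kilobases and by the library's fragments in units of 1000000, so that levels can be compared between genes. Reads on genes numbered from 15483569 in HCT116 spheroids to 20429147 in adherent HCT116 cells. At a gene length of 1 kilobase, a floor of 3 reads corresponded to 0.147 to 0.179 FPKM. A fold change is the difference of log2(FPKM + 1) between libraries, a scale that understates changes of low genes. The interval of a log2 ratio, given for single genes, is the 95% exact (Clopper-Pearson) interval from the reads and covers counting error only. Of the 42 kinesins, 33 reached a mean of 1 FPKM across the libraries and were compared, as were 14429 genes in all. These were 12 mitotic, 13 transport and 8 other kinesins.

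The libraries labelled LOVO went against their label in part. CDX2, a marker of intestinal epithelium, was at 0 in both, against 3.84 and 3.12 FPKM in the HCT116 libraries. VIL1 and LGALS4 do not separate the lines, since both were below 0.1 FPKM in every library. The adhesion genes EPCAM and CDH1 reached only 0.930 and 0.117 FPKM in the adherent LOVO library and 1.50 and 0.00805 FPKM in the spheroid LOVO library, against 79.3 or more and 31.1 FPKM in the HCT116 libraries. The keratins KRT8, at 189 and 81.6 FPKM, and KRT18, at 122 and 98.8 FPKM, were present in the LOVO libraries, and KRT19 was at 14.9 and 4.85 FPKM. Of 5 fibroblast markers, LUM and DCN were at 31.4 and 10.4 FPKM in adherent LOVO cells and, in the LOVO spheroids, at 50.4 and 9.97 FPKM, while in HCT116 DCN was at 0 and LUM at 0.0198 FPKM or less. COL3A1 was at 0.811 and 5.13 FPKM in LOVO and at 0.358 FPKM or less in HCT116. The other markers of the list did not follow: COL1A1 was highest in HCT116 spheroids, at 15.5 FPKM against 9.89 and 6.10 FPKM in the LOVO libraries, and COL1A2 was at 0.00534 FPKM or less in every library. Of 3 endothelial markers, PECAM1 set the 2 LOVO libraries apart, at 0.0359 FPKM in adherent cells and 6.35 FPKM in spheroids, against 0.391 FPKM or less in HCT116. CDH5 was at 1.05 and 1.42 FPKM in LOVO and at 0.0294 FPKM or less in HCT116. VWF was at 0.332 FPKM or less in every library. In HCT116, 6 of the 8 epithelial markers were above 1 FPKM in both libraries. LOVO is used below as the label of these libraries. The comparison of HCT116 spheroids with adherent HCT116 cells does not use them.

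Most kinesins convert ATP hydrolysis into steps along a microtubule. Mitotic kinesins build and shorten the spindle, carry chromosomes and close the cell at cytokinesis, and their genes are typically switched on late in the cell cycle. Transport kinesins carry vesicles, mitochondria and other cargo in cells whether or not they divide. Others regulate microtubule growth, cilia or signalling. Many genes of late cell cycle hold a CCAAT box and a cell cycle homology region (CHR) near the start of transcription, and these letters were searched in the kinesin promoters.

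The promoters shown next were chosen to let the 2 kinds of motor be compared. Each is the 120 bases before RefSeq's start of the gene in GRCh38.p14, 5′ to 3′ on the gene's strand, with CCAAT letters (CCAAT, or ATTGG for the opposite strand) and CHR letters (TTTGAA or TTCGAA, or TTCAAA for the opposite strand) in capitals. The first 5 are mitotic kinesins that hold both. They are KIF11 (chr10:92593010-92593129, plus strand), KIF4A (chrX:70289984-70290103, plus strand), KIF22 (chr16:29790631-29790750, plus strand), KIF18A (chr11:28108157-28108276, minus strand) and KIF23 (chr15:69414229-69414348, plus strand). KIF2C (chr1:44739717-44739836, plus strand) is a mitotic kinesin with neither. KIF5B (chr10:32056426-32056545, minus strand) and KIF3C (chr2:25982498-25982617, minus strand) are transport kinesins.
KIF11: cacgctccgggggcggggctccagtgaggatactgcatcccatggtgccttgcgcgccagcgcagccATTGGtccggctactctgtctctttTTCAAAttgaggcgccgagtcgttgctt
KIF4A: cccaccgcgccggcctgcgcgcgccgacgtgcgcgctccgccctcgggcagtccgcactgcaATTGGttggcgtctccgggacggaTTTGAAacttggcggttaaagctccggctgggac
KIF22: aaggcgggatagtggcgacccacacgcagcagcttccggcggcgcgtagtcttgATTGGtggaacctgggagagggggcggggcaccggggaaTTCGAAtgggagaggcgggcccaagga
KIF18A: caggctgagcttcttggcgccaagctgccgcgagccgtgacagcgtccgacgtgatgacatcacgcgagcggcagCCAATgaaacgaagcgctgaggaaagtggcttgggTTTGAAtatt
KIF23: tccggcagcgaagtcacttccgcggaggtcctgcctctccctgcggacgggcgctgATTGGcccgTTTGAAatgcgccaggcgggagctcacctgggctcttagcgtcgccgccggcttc
KIF2C: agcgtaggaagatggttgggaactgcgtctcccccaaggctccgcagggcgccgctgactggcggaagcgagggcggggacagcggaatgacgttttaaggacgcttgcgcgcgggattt
KIF5B: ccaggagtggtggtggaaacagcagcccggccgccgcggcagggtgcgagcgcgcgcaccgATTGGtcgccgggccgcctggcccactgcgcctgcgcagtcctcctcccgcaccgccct
KIF3C: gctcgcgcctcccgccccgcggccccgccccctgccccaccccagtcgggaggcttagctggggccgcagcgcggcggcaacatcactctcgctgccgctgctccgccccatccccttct

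In KIF11 the CHR letters began 28 bases before the start and 25 bases after the beginning of the CCAAT letters. In KIF4A they began 34 bases before the start, at a distance of 24 bases from the CCAAT letters. The distance was 39 bases in KIF22, 35 in KIF18A and 9 in KIF23. The promoter of KIF5B held CCAAT letters 59 bases before the start, and its CHR letters, 140 bases before the start, lie outside the bases shown. KIF3C had neither.

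Promoters of 300 bases, from 250 before to 50 after the start, were at hand for 34 of the 42 kinesins. CCAAT letters on either strand were in 11 of 14 mitotic kinesins (78.6%), 3 of 11 transport kinesins (27.3%) and 3 of 9 others (33.3%), against 34.6% of all 35116 promoters of this length. CHR letters on either strand were in 11 of 14 mitotic kinesins, 1 of 11 transport kinesins and 1 of 9 others, against 16.4% of all promoters. Within 50 bases of the start, a window set after the lists were drawn up, they were in 10 of 14 mitotic kinesins (71.4%) and 0 of 11 transport kinesins, against 5.01% of all promoters. Among 9277 protein-coding genes with a mean of at least 1 FPKM, 10.7% held CHR letters and 3.12% held them in this window. CHR letters are mostly A and T. The median GC content was 62.0% in mitotic, 69.7% in transport and 58.7% in all promoters. The part of base content in these shares was not tested. Both kinds of letters were in 10 of 14 mitotic kinesins, against 6.38% of all promoters. The 3 mitotic kinesins without CHR letters were KIF2C, KIF20A and KIF2B. Among the others only KIF24, a centriole kinesin, held CHR letters. The 120 bases before its RefSeq start (chr9:34329269-34329388) lie outside the annotated gene (chr9:34252381-34311371) whose FPKM is given here. KIF4B is a near copy of KIF4A, so these are not separate instances. RefSeq's start lies inside the annotated gene for KIF5C and for several other kinesins. Among these, the 120 bases before the start lie wholly inside the gene for KIF5C, KIF3C, KIF18A, KIF20A, KIFC1, KIF21A, KIF9 and KIF25. KIF5C and KIF3C are counted among the 11 transport promoters. Letters were searched around RefSeq's start only. A match of letters is a description and not a binding site.

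**Figure D1:**
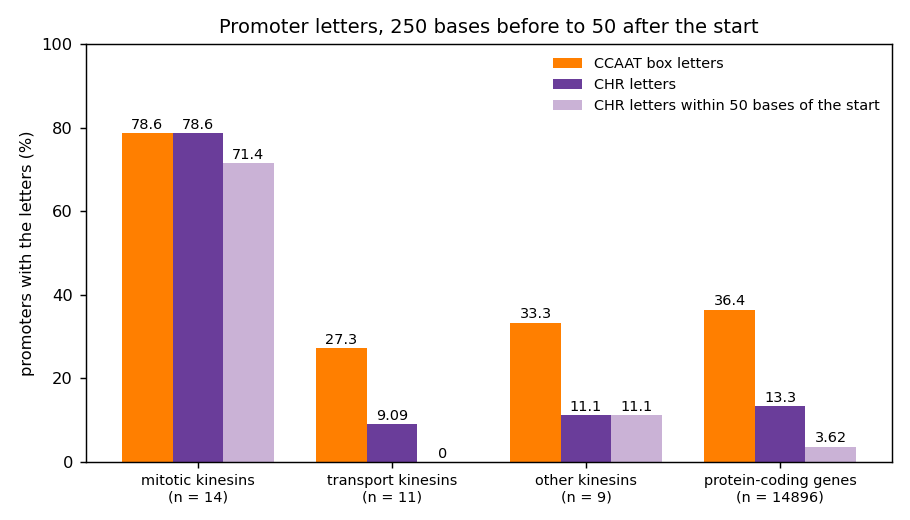
Share of promoters (%, y axis) that hold CCAAT letters, CHR letters, or CHR letters within 50 bases of the start, for the mitotic, transport and other kinesins and for protein-coding genes, with the number of promoters under each group. CHR letters were in 78.6% of the 14 mitotic promoters, 9.09% of the 11 transport promoters and 13.3% of the 14896 protein-coding promoters.

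In HCT116, the mitotic kinesins were lower in spheroids than in adherent cells, while the transport kinesins as a list were near 0 change. All 12 mitotic kinesins compared were lower, against 53.4% of the 14429 genes, with a median log2 fold change of -1.74 against -0.03. Their summed FPKM was 180 in adherent cells and 43.0 in spheroids, 4.19-fold lower. The 13 transport kinesins had a median of 0.05, and their sum was 154 FPKM in adherent cells and 163 FPKM in spheroids. Mitotic kinesins thus made up 49.0% of the kinesin FPKM in adherent cells and 17.2% in spheroids. The count of 12 of 12 depends on how the lists were divided. KIF2A, a depolymerase of spindle poles, was placed among the other kinesins. It was higher in HCT116 spheroids, with a log2 fold change of 0.36, and its value in LOVO was -0.08. In such bulk libraries, fewer dividing cells and less RNA per cell cannot be told apart.

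In the libraries labelled LOVO the mitotic kinesins were also lower in spheroids, by less. The median over the 12 was -0.68, against -0.06 over all genes, and their sum was 219 FPKM in adherent cells and 129 FPKM in spheroids, 1.69-fold lower. All 12 had a value below 0, against 53.5% of all genes compared. However, KIFC1 at -0.07 had an interval that includes 0 and turned to 0.13 with TPM and to 0.06 with TMM-style scaling. The transport kinesins had a median of -0.20 and a sum of 210 and 142 FPKM, 1.48-fold lower in spheroids. The sum of the other kinesins was 60.6 and 35.3 FPKM, 1.72-fold lower. The sums in LOVO thus do not set the mitotic list apart. KIF5A and KIF5C, which are among the 13 in the transport median, passed the filter only through HCT116. They had 5 reads or fewer in each LOVO library, so their LOVO values of -0.03 do not measure a change. The mitotic share of the kinesin FPKM was 44.7% and 42.2%. Values below 0 in both lines were found for 12 of 12 mitotic and 6 of 13 transport kinesins, and for 35.1% of all genes compared. These 6 include KIF5A, and KIF13B, whose HCT116 value of -0.003 changed sign with scaling.

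**Figure D2:**
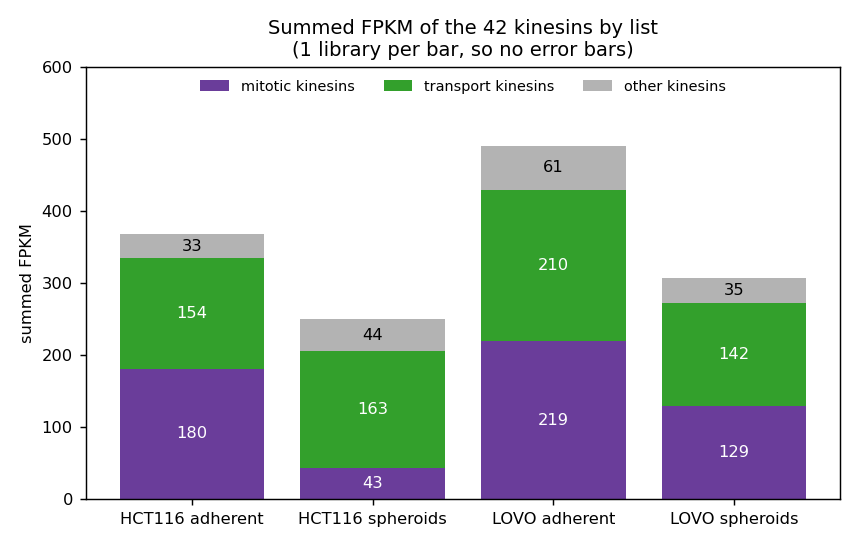
Summed FPKM (y axis, from 0) of the mitotic, transport and other kinesins in each of the 4 libraries, stacked, with 1 library per bar. The mitotic part was 180 FPKM in adherent HCT116 cells and 43.0 FPKM in HCT116 spheroids, against 219 and 129 FPKM in LOVO.

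The study's methods set a log fold change of 2 together with a P value from edgeR. Here only the size of 2 was used, on the log2(FPKM + 1) scale and without a P value. Past it, 4 of the 33 kinesins were below -2 in HCT116 spheroids and 0 were above 2. Over all genes compared these shares were 0.506% and 0.201%. Past a threshold of 1, 11 kinesins were below -1 and 1 was above 1, against 3.33% and 2.19% of all genes. All 11 below -1 were mitotic. In LOVO spheroids, 1 kinesin was below -2 and 1 above 2, against 0.943% and 1.81% of all genes. At a threshold of 1 the numbers were 5 and 2, against 7.85% and 8.57%.

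Motors that act on microtubule ends and chromosomes included the largest differences in HCT116. KIF2C, the depolymerase at centromeres (chr1:44739818-44767767 of GRCh38, plus strand), had 31.1 FPKM in HCT116 cells grown attached and 4.69 in their spheroids, and 30.3 and 15.5 FPKM in LOVO, again adherent first. HCT116 spheroids stood apart from the other 3 libraries. Its log2 fold change was -2.50 for HCT116 and -0.92 for LOVO, with log2 ratios of -2.73 (-2.91 to -2.55) and -0.96 (-1.07 to -0.86). KIF18A, which damps chromosome movements at the spindle equator, was at 8.13, 4.99, 5.58 and 3.92 FPKM in the same order of libraries. It changed least of the 12 in HCT116, by -0.61, and its intervals in both lines overlap. KIF18B, a motor that shortens astral microtubules, was at 15.1, 2.51, 12.4 and 7.41 FPKM, giving -2.20 (HCT116) and -0.68 (LOVO). KIF22, a chromosome arm motor, was at 20.4, 6.39, 26.9 and 13.9 FPKM, and KIF4A, a chromosome and midzone motor, at 12.2, 2.52, 18.7 and 6.73 FPKM. Both were lowest in HCT116 spheroids, and KIF4A had the most negative mitotic value in LOVO, -1.35.

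The next motors shape the spindle itself. KIF11, which pushes spindle poles apart (chr10:92593286-92655395, plus strand), was at 12.1 FPKM in the attached HCT116 cells and 2.77 in the spheroids, and at 24.9 and 10.1 FPKM in LOVO. Its log2 fold change was -1.80 in HCT116 and -1.22 in LOVO, and KIF11 and KIF4A were the 2 mitotic kinesins below -1 in LOVO. KIF15, which can share the work of KIF11, was at 4.86, 0.822, 7.01 and 3.67 FPKM in the same order. It had the fewest reads of the 12 in HCT116 spheroids, 73, and its log2 ratio there was -2.56 (-2.94 to -2.21). KIFC1, a minus-end motor that focuses spindle poles (chr6:33391536-33409924, plus strand), was at 27.4, 5.37, 22.8 and 21.7 FPKM. Here the 3 libraries other than HCT116 spheroids lay close together, and the fold change was -2.15 in HCT116.

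Cytokinesis motors followed. KIF20A, which brings the chromosomal passenger complex to the midzone, was at 23.5 FPKM in adherent and 4.44 in spheroid HCT116 cells, and at 24.7 and 15.6 FPKM in LOVO, giving -2.17 and -0.63. KIF23, the motor of the centralspindlin complex, was at 13.1, 4.54, 27.2 and 16.6 FPKM in the same order. KIF20B, a midzone motor, was at 6.19, 2.19, 9.78 and 7.93 FPKM, and KIF14, which holds the kinase CIT at the midbody, at 5.99, 1.75, 8.52 and 6.45 FPKM. The 4 had values between -1.17 and -2.17 in HCT116 and between -0.27 and -0.68 in LOVO. KIF2B was at 0 reads in every library and KIF4B at 5 reads or fewer, from 0.0114 to 0.0637 FPKM. Its annotated transcript shares stretches of 50 bases with KIF4A, so the reads of these near copies are uncertain.

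The value in HCT116 was below that in LOVO for 12 of 12 mitotic kinesins. The counting intervals of the log2 ratio did not overlap between lines for 11 of them, all except KIF18A. Intervals also did not overlap for 7 of 13 transport and 7 of 8 other kinesins, so separate intervals are not particular to the mitotic list. The HCT116 value was the lower one for 5 of 13 transport and 2 of 8 other kinesins. The shares over all genes compared were not computed. The median difference over the mitotic kinesins was -0.91. This difference between lines was not tested, since counting intervals do not include the spread between cultures.

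**Figure D3:**
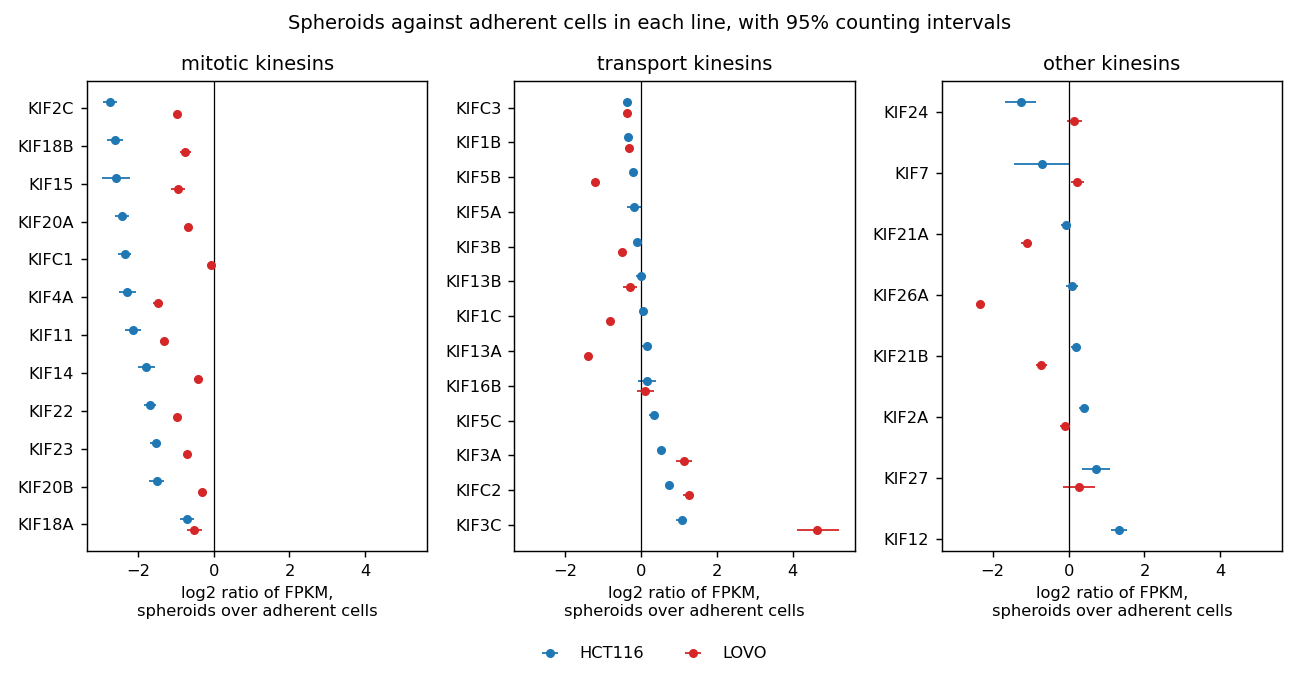
Log2 ratio of FPKM, spheroids over adherent cells (x axis), for each kinesin in HCT116 (blue) and LOVO (red), with bars for the 95% counting interval. Mitotic kinesins reach from -2.73 (KIF2C) to -0.71 (KIF18A) in HCT116, and KIF3C in LOVO stands at 4.64. Points resting on 3 reads or fewer in a library (KIF5A, KIF5C and KIF12 in LOVO) are left out.

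Among the transport kinesins, the kinesin-1 heavy chain KIF5B (chr10:32009010-32056431, minus strand), which carries mitochondria and vesicles, was the highest kinesin of every library except LOVO spheroids. Its level was 44.5 FPKM in attached HCT116 cells and 38.2 in their spheroids, and 63.3 and 27.3 FPKM in the LOVO libraries. The fold change was -0.22 in HCT116 and -1.18 in LOVO. Its relatives KIF5A and KIF5C, best known from neurons, were at 4.30 and 5.95 FPKM in adherent HCT116 cells and at 3.77 and 7.52 FPKM in HCT116 spheroids. In LOVO, KIF5A was at 0.0445 and 0.0238 FPKM, and KIF5C at 0.0242 FPKM (adherent) and 0 (spheroids). KIF5B made up 81.3% and 77.2% of the FPKM of the 3 genes in the HCT116 libraries and 99.9% in each LOVO library.

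Kinesin-2 joins KIF3A with either KIF3B or KIF3C. KIF3A was at 7.22, 10.4, 2.23 and 4.85 FPKM, taking HCT116 before LOVO and adherent before spheroids, and its fold change was 0.47 in HCT116 and 0.86 in LOVO. KIF3B was at 18.4, 17.1, 12.2 and 8.63 FPKM, with -0.10 and -0.45. KIF3C (chr2:25926596-25982749, minus strand) was at 4.47, 9.39, 0.253 and 6.31 FPKM. Adherent LOVO cells stood apart with 29 reads of KIF3C, against 813 in LOVO spheroids, a ratio of 25.0-fold. The fold change of KIF3C was 0.92 in HCT116 and 2.55 in LOVO, the highest kinesin value in LOVO. KIF3B exceeded KIF3C 4.12-fold and 1.82-fold in the HCT116 libraries, and 48.3-fold and 1.37-fold in those of LOVO. KIF17, the other kinesin-2, was under the filter at 0.0748 to 1.51 FPKM.

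The kinesin-3 motors carry vesicles and endosomes. KIF1C, a long-range carrier of dense-core vesicles and integrin, was at 24.2, 25.1, 36.5 and 20.5 FPKM in the same order, with 0.05 in HCT116 and -0.80 in LOVO. KIF1B, a carrier of mitochondria and synaptic vesicle precursors, was at 10.8, 8.50, 6.22 and 4.94 FPKM, about equally lower in the spheroids of each line at -0.31 and -0.28. KIF13A, a motor of recycling endosomes, was at 3.45, 3.82, 27.1 and 10.3 FPKM. It was highest in adherent LOVO cells, and its fold change was 0.11 in HCT116 and -1.31 in LOVO. KIF13B, a related carrier, was at 4.25, 4.24, 2.35 and 1.91 FPKM, and its value of 0.00 in HCT116 changed sign with scaling. KIF16B, a motor of early endosomes, was at 1.98, 2.21, 2.29 and 2.47 FPKM, with intervals that include 0 in both lines. KIF1A was under the filter at 0 to 0.207 FPKM.

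Of the C-terminal motors, KIFC3, which works at adherens junctions, was at 8.01, 6.19, 51.6 and 39.8 FPKM in the same order. It was higher in both LOVO libraries and was the highest kinesin of LOVO spheroids. KIFC2 was at 14.7, 24.6, 6.34 and 15.1 FPKM, higher in the spheroids of each line at 0.71 and 1.14. Of its exonic bases 17.8% overlap FOXH1 on the opposite strand, which was at 0.338 FPKM or less.

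Over the 8 other kinesins compared the median was 0.11 for HCT116 and 0.02 for LOVO. KIF26A, a kinesin without motor activity that takes part in signalling (chr14:104138723-104180894, plus strand), was at 5.93, 6.30, 26.4 and 5.25 FPKM. Adherent LOVO cells stood apart, and the fold change in LOVO was -2.14, the lowest kinesin value there. KIF12 (chr9:114086126-114099291, minus strand) was at 4.78, 12.0, 0 and 0.638 FPKM, the highest kinesin value in HCT116 at 1.16. With LOVO it had 0 reads in the adherent library and 39 in that of spheroids, at least 11.6-fold higher in spheroids against a floor of 3 reads. KIF7, a regulator of Hedgehog signalling at the cilium tip, was at 0.481, 0.298, 6.08 and 7.14 FPKM. Of its exonic bases 11.8% overlap TICRR on the opposite strand, which was at 3.87, 0.949, 7.81 and 9.90 FPKM, and their part in its value was not tested.

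KIF2A, a depolymerase of spindle poles and neurites, was at 8.39, 11.1, 10.9 and 10.2 FPKM in the same order. Its mitotic relative KIF2C spanned a wider range. KIF24 was at 1.59, 0.670, 3.48 and 3.87 FPKM, with -0.63 in HCT116 and 0.12 in LOVO. KIF21A, which restrains microtubule growth at the cell cortex, was at 4.74, 4.54, 6.90 and 3.20 FPKM, and its relative KIF21B at 4.80, 5.45, 4.95 and 3.01 FPKM. Both were lowest in LOVO spheroids. KIF27, a relative of KIF7, was at 1.09, 1.79, 0.944 and 1.14 FPKM. Under the filter were KIF9 at 0.824 to 1.09 FPKM, KIF26B at 0.0104 to 0.372 FPKM, KIF19 at 0 to 0.274 FPKM, KIF25 at 0 to 0.0515 FPKM and KIF6 at 0 to 0.0150 FPKM.

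**Figure D4:**
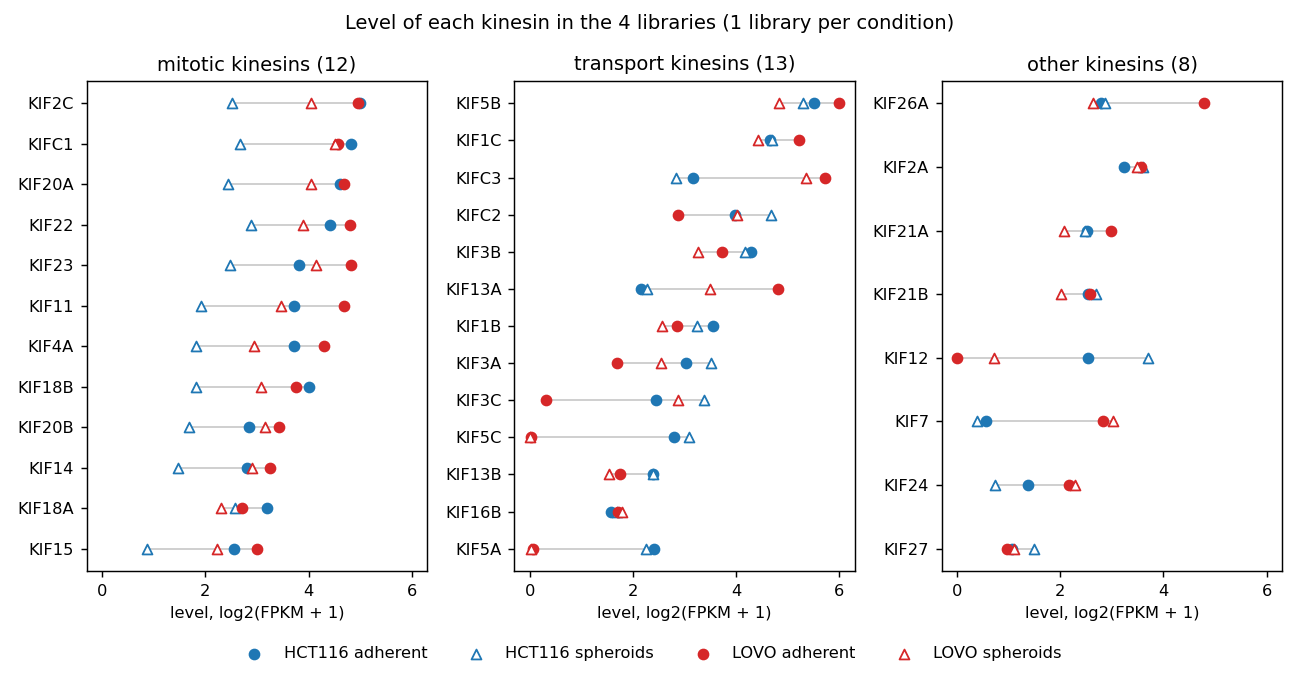
Level of each of the 33 kinesins compared, as log2(FPKM + 1) on the x axis, in adherent cells (filled circles) and spheroids (open triangles) of HCT116 (blue) and LOVO (red), 1 library per symbol. HCT116 spheroids are the lowest library for 11 of the 12 mitotic kinesins, KIF18A being the exception, and KIF5A and KIF5C lie near 0 in both LOVO libraries.

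Between the lines, the mitotic kinesins were closer in adherent cells than in spheroids. LOVO minus HCT116 had a median of 0.41 in adherent cells, with 1 of 12 above 1, and of 1.46 in spheroids, with 11 of 12 above 1. KIF18A at -0.28 was the exception in spheroids. The sum in spheroids was 3.01-fold higher in LOVO. These comparisons share libraries with those above, so they are not separate evidence. The transport kinesins had medians of -0.65 and -0.67. These medians include KIF5A and KIF5C, which passed the filter only through HCT116.

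In adherent cells, 4 kinesins were below -2 in LOVO (KIF5C, KIF12, KIF5A and KIF3C) and 3 above 2 (KIF13A, KIFC3 and KIF7), against 5.59% and 5.26% of all genes. Past 1 they were 6 and 5, against 16.4% and 17.4%. In spheroids, 3 were below -2 (KIF5C, KIF12 and KIF5A) and 2 above 2 (KIF7 and KIFC3), against 4.71% and 5.68%. Past 1 they were 3 and 15, against 15% and 17.7%. KIF5A, KIF5C and KIF12 passed the filter only through HCT116, and KIF7 only through LOVO. For these genes the filter itself favours a difference between the lines, so their place in the counts is a description only. Against a floor of 3 reads, KIF12 was at least 86.8-fold higher in adherent HCT116 cells than in adherent LOVO cells, and KIF5C at least 465-fold higher in HCT116 spheroids than in LOVO spheroids. KIF13A was 7.84-fold and KIFC3 6.44-fold higher in adherent LOVO cells.

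Genes that work with the mitotic kinesins had values like theirs. The 14 spindle partners compared were lower in spheroids in 14 of 14 cases in each line. Among all genes compared, 53.4% were lower in HCT116 spheroids and 53.5% in LOVO spheroids. The median of the partners was -1.71 for HCT116 and -0.68 for LOVO. The largest values in HCT116 were -2.69 for AURKB and -2.63 for BIRC5, members of the chromosomal passenger complex, and -2.43 for its partner CDCA8. In LOVO, BIRC5 was at -1.39, the spindle kinase AURKA at -1.04 and its activator TPX2 at -0.99. CENPE was at 4.81, 1.49, 4.66 and 2.38 FPKM in the order of libraries above, or -1.22 and -0.75. The 13 proliferation markers were lower in 13 of 13 cases in each line, with medians of -1.89 and -0.97, led by CDC20 at -3.16 in HCT116 and PLK1 at -1.56 in LOVO. Their part in the values of the mitotic kinesins was not tested.

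Cargo adaptors and light chains, and dynein and dynactin, had medians nearer 0 than the mitotic kinesins. For the 13 cargo adaptors and light chains they were -0.08 (HCT116) and 0.12 (LOVO), and 0 of them were past 1 in either line. KLC3, a light chain, had the largest value in HCT116 at -0.51, and KLC4 in LOVO at 1.00. Cytoplasmic dynein and dynactin, the motor of the opposite direction, had medians of -0.02 and -0.27 over 16 genes. Of these genes, 9 were lower in HCT116 spheroids and 13 in LOVO spheroids, against 53.4% and 53.5% of all genes compared. The largest values were -0.82 for DCTN3 in HCT116 and -0.92 for DYNC1LI1 in LOVO. The 10 tubulins compared are the alpha and beta tubulins of the microtubule and the nucleating gamma-tubulin TUBG1. In HCT116 spheroids 8 were lower, against 53.4% of all genes compared. Their median was -0.85, farther from 0 than those of the other lists in this paragraph, and TUBA1B led at -1.78. In LOVO 5 were lower and 5 higher, with a median of 0.12 and TUBA1A at 1.72.

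**Figure D5:**
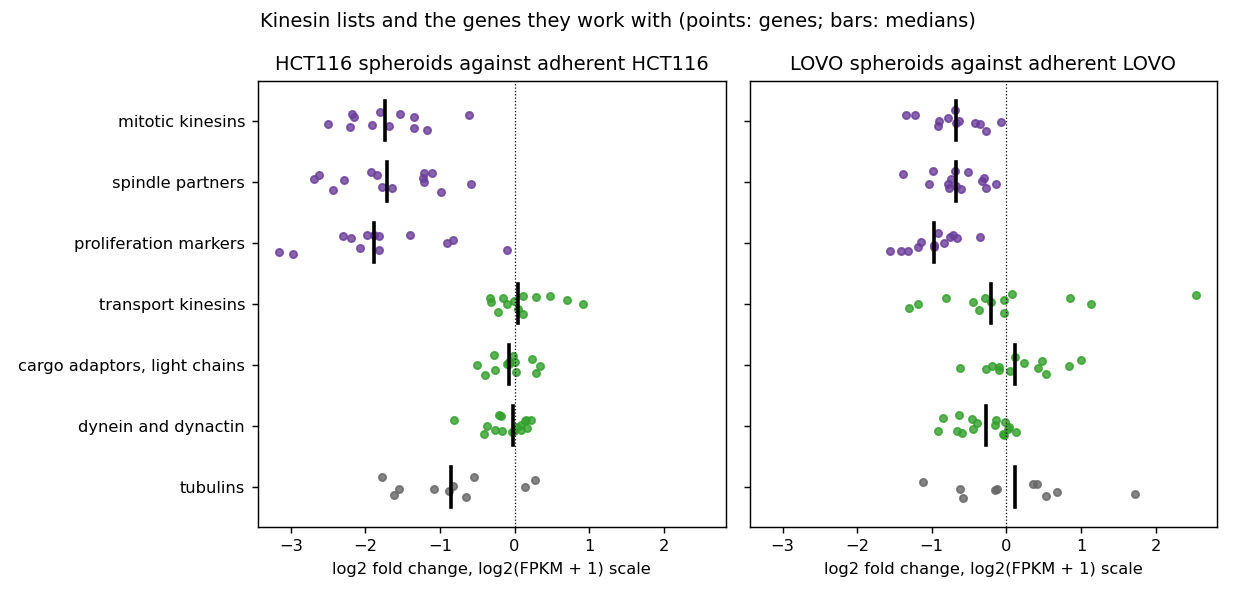
Log2 fold change (log2(FPKM + 1) scale, x axis) of spheroids against adherent cells in HCT116 and in LOVO for 7 lists, with a point for each gene and a black bar for the median. Mitotic kinesins, their spindle partners and the proliferation markers have medians of -1.74, -1.71 and -1.89 in HCT116, and the transport kinesins 0.05.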

How the data were processed

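The authors deposited 1 table with the FPKM of 58735 genes in 4 RNA-seq libraries and, per the file headers, another column with the gene length in bases. The labels name mouse builds GRCm38 and mm10, but all 58735 gene IDs are in GENCODE 29 of human GRCh38, 58724 with the same start and end. The aligner, the counter and the use of strand are not given in the sources used here. FPKM multiplied by gene length gave whole reads for 100% of values (within 0.05 of a whole number). The library sizes behind the FPKM were 0.907 to 1.09 times the reads on genes. Log2(FPKM + 1) was compared where the mean over the libraries was 1 FPKM or more (scipy 1.17.1 and pandas 2.3.3 under Python 3.11.15), and the scripts were tested on simulated data. Alternatives were pseudocounts of 0.1 and 0.01, no filter, a mean FPKM of at least 5, TPM, TMM-style scaling, centring, a threshold of 1 and changed lists. Every kinesin compared was named, as were up to 3 genes with the largest values in each other list. The members and lists were chosen with earlier results of these data known. RefSeq promoters of GRCh38.p14 gave the sequences.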

Additional observations from a re-analysis of the deposited data

Results flagged for a closer look

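KIF21B, a kinesin that restrains microtubule growth, was flagged because its value had opposite signs in the 2 lines with both counting intervals off 0. Its log2 fold change of spheroids minus adherent cells was 0.15 in HCT116 and -0.57 in LOVO. Opposite signs alone were found for 5162 of the 14429 genes compared. How many of these also have both intervals off 0 was not computed. Each value compares 1 library with 1 library, and the difference between the lines was not tested.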

How the results depend on the processing

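Each condition had 1 library, so leaving out a replicate was not possible. No paired analysis was possible because the comparisons set 1 library against 1 library, sharing 1 replicate number, and come from no test. A model over both lines with the line as a block was not run. None of the list medians and counts changed sign under the 10 alternatives, while 98 values moved by less than their counting interval or by less than 1.5 times and 30 moved further.
In HCT116 spheroids against adherent cells, the mitotic median was -2.16 and -2.20 with pseudocounts of 0.1 and 0.01 and -2.06 with TPM, 7 kinesins were below -2 with either pseudocount, and at a threshold of 1 the counts were 11 and 1. In LOVO, 2 kinesins were above 2 with either pseudocount, and at a threshold of 1 the counts were 5 below and 2 above. The LOVO transport median was -0.37 with a pseudocount of 0.01 and with a mean FPKM of at least 5, and -0.035 with no filter. The LOVO mitotic median was -0.51 with TPM and -0.55 with TMM-style scaling. For adherent LOVO minus adherent HCT116, the mitotic median was 0.22 with no filter, 1 kinesin was below -2 with a mean FPKM of at least 5, and 5 were above a threshold of 1. For the spheroids of the lines, the mitotic median was 1.80, 1.83 and 1.94 with pseudocounts of 0.1 and 0.01 and TPM, and 4, 5 and 6 kinesins were above 2. With a mean FPKM of at least 5, 1 was above 2, 0 were below -2 and the transport median was -0.51, against -0.46 with TPM. At a threshold of 1, 15 were above it. The cause of these shifts was not tested. TPM moved the median of all genes from -0.06 to 0.10 in LOVO spheroids against adherent cells, and from 0.04 to 0.26 between the spheroids. Alternatives for single kinesins were chosen after seeing the data, and signs changed only for values near 0 (KIF13B, KIF20A, KIF21B, KIF2A, KIF2C, KIF5A, KIF5C and KIFC1, each in 1 or 2 comparisons). Counting intervals do not cover the spread between cultures.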
